A study of Mus musculus with 6 samples.

Results

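The cytotoxic granule is described here through 10 genes: the granzymes Gzma, Gzmb, Gzmc, Gzmk and Gzmm, the pore-forming protein gene Prf1, and Srgn, Nkg7, Ctsw and Serpinb9. Every probe set whose platform symbol was exactly 1 of these names was taken, which gave 12 of the 45037 probe sets of the array and 10 of 18193 genes. The probe set with the highest mean over the 6 arrays stood for its gene, and the second probe sets of Prf1 and Serpinb9 served as a check. The genes were picked by name, with earlier results of these data known.

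Cytotoxic T cells kill by releasing granules into the contact zone with a target cell. Perforin opens a path through the target's membrane, and granzymes, which are serine proteases, then cleave proteins inside the target. In the granule these cationic proteins are held on the proteoglycan serglycin, the product of Srgn. The killer cell protects itself with inhibitors such as the serpin encoded by Serpinb9, which blocks granzyme B. Resting naive CD8+ T cells are known to hold little granzyme B, while memory CD8+ T cells can keep granzyme transcripts at rest.

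The 6 arrays were Affymetrix mouse expression arrays hybridised with RNA of CD8+ T cells, labelled naive and taken from the spleens of Nrdp1-/- or Nrdp1+/+ mice of the strain given as C57/BL6. Nrdp1 is a ubiquitin ligase encoded by Rnf41. For each genotype there was 1 array of untreated cells, 1 array after 4 h and 1 array after 8 h of stimulation. The stimulus was anti-CD3 fixed to the plate (5 µg/ml) plus anti-CD28 in solution (1 µg/ml), antibodies that together act on the T cell receptor and on CD28, a costimulatory receptor. The comparisons ask how the granule genes change after this stimulus and how they differ without Nrdp1. The labels name no cells kept for 4 h or 8 h without the antibodies. The effects of the stimulus and of time in culture therefore cannot be told apart. The labels give neither the age nor the number of the mice, nor whether RNA was pooled or how the knockout was made. The treatment field of the stimulated samples names only anti-CD28, and the extraction text names the colon. The p-values below therefore measure the spread between arrays, with 1 array per genotype and time, and not the spread between animals.

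Values are MAS5 signals, scaled by the authors to the same trimmed mean of 500.0 on every array, with array medians of 61.5 to 68.6. A log2 difference is taken on log2(signal + 4.45) and is given with its standard error from limma, a linear model across all genes with Benjamini-Hochberg adjustment. A gene is called where the adjusted p is below 0.05. Of the 10 genes, 9 lay high enough to be tested beside 10838 genes in all. The signal of Rnf41 was 528 untreated, 437 at 4 h and 477 at 8 h in Nrdp1-/- cells, against 728, 505 and 639 in Nrdp1+/+ cells. Its mean genotype difference of -0.36 ± 0.12 was not called (limma, adjusted p = 0.128). All 10 tested T and CD8 lineage markers were uncalled between the genotypes, with summed signals of 77460 to 91132 on Nrdp1-/- arrays and 82767 to 93492 on Nrdp1+/+ arrays. Of 5 CD4 T cell markers, Cd4, Foxp3 and Cd40lg lay below the array median on all 6 arrays, Ctla4 lay above it on all 6, and neither of the 2 tested was called between the genotypes. Of 15 colon epithelium and smooth muscle markers, 7 lay below the median on all arrays, Vil1, Muc2 and Myh11 among them, and Epcam and Lgals4 lay above it on all arrays. Of the 5 tested, Car1 was higher in Nrdp1-/- cells by 2.27 ± 0.36 (limma, adjusted p = 0.00304) and Epcam lower by -1.06 ± 0.15 (adjusted p = 0.00141). In bulk RNA, fewer cells of a type and less RNA per cell cannot be told apart.

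The next 4 stretches of sequence before the start site are shown. Gzmb had the largest fitted change on stimulation among the 9 tested genes, and Serpinb9, the gene of its inhibitor, was the other member called higher at both times. Gzmk had the largest genotype difference, and Gzma lies beside it on chromosome 13, with 0 protein-coding genes between them. Each stretch is the 250 bases before the start in RefSeq on build GRCm38.p6, written 5′ to 3′ in the direction of the gene. Their positions are chr14:56262335-56262584 (minus strand) for Gzmb, chr13:33004291-33004540 (plus strand) for Serpinb9, chr13:113180966-113181215 (minus strand) for Gzmk and chr13:113100982-113101231 (minus strand) for Gzma. Capitals mark matches to the motifs named after the sequences.
Gzmb: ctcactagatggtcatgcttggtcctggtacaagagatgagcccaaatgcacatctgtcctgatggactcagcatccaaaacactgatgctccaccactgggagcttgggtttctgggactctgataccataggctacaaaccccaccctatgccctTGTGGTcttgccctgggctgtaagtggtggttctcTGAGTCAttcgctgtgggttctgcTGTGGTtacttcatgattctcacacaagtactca
Serpinb9: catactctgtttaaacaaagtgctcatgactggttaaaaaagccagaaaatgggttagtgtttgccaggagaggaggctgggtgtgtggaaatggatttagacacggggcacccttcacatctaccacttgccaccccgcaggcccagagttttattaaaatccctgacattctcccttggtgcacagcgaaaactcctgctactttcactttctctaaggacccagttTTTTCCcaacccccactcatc
Gzmk: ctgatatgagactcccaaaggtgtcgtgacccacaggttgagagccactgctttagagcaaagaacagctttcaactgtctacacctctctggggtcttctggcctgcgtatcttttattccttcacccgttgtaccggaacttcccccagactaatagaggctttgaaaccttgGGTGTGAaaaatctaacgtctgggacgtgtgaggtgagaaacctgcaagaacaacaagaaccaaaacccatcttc
Gzma: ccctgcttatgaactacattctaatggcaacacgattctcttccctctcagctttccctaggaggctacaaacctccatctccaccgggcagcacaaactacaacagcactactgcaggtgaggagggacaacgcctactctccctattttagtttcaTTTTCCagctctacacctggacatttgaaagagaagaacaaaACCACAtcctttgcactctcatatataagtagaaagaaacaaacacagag

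Motifs of factors known in cytotoxic T cells were searched on both strands, chosen from textbook knowledge after these letters had been seen. They were AP-1 (TGANTCA), RUNX (TGTGGT), T-box (GGTGTGA), the CRE half-site (TGACG), STAT (TTCNNNGAA) and NFAT (GGAAAA). The Gzmb stretch held AP-1 letters starting 58 bases before the start site and RUNX letters at 93 and 34 bases before it. The Gzmk stretch held T-box letters 75 bases before the start, and the Gzma stretch RUNX letters at 50 and NFAT letters at 92 bases before it. In the Serpinb9 stretch NFAT letters were the only match. Within these 4 stretches 0 matches overlapped. Among 9 members with an entry, each at its first listed start, RUNX letters stood in 6, against 14.0% of 32851 mouse promoters. AP-1 letters stood in 1 member against 6.75% of promoters, T-box letters in 2 against 3.33%, the CRE half-site in 2 against 17.8%, STAT letters in 2 against 7.02% and NFAT letters in 3 against 20.4%. A match is a string of letters and says nothing of binding. Ctsw was not matched in the promoter table and is named only.

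**Figure D1:**
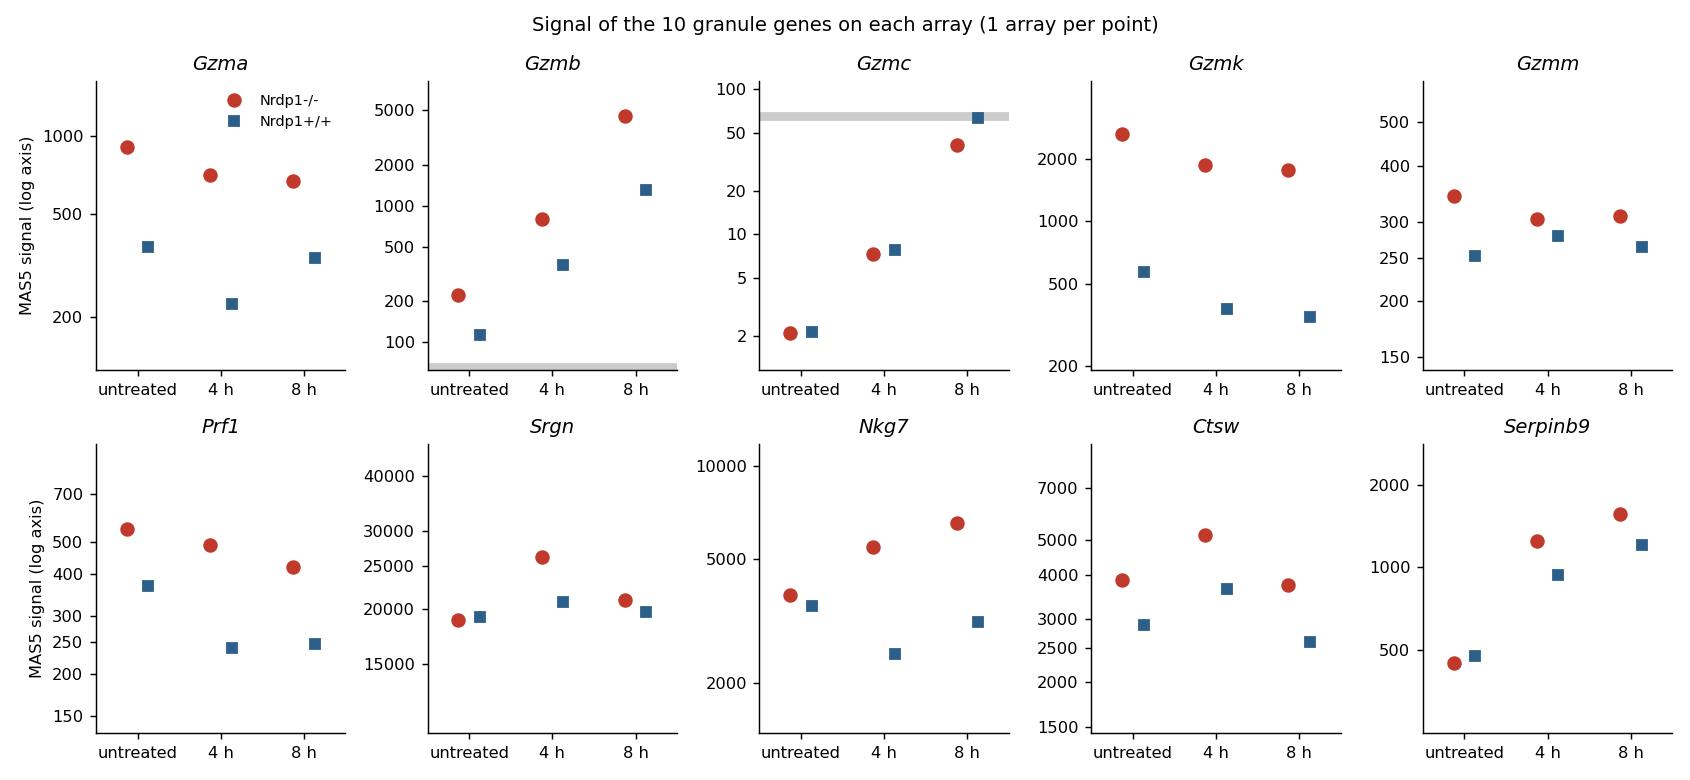
MAS5 signal of the 10 genes (log axis, 1 panel per gene, own scale) in untreated cells and after 4 h and 8 h of stimulation, 1 point per array, red circles for Nrdp1-/- and blue squares for Nrdp1+/+; the grey band is the range of the array medians, 61.5 to 68.6. Gzmb climbed with time in both genotypes, Gzmk and Gzma were higher in Nrdp1-/- cells at each time, and Gzmc stayed below its array's median.

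Between the genotypes, 6 of the 9 tested granule genes were higher in Nrdp1-/- cells and 0 were lower. These were Gzmk, Gzma, Gzmb, Prf1, Nkg7 and Ctsw, with mean differences of 0.49 to 2.28 on the log2 scale. Of all genes tested, 2.47% were called higher and 2.57% lower. The median difference was 0.77 over the 9 members and -0.01 over all genes tested. Srgn, Gzmm and Serpinb9 were not called.

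Gzmk encodes a tryptase-like granzyme that is known as a mark of memory CD8+ T cells. Its signal was 2634 untreated, 1875 at 4 h and 1757 at 8 h in Nrdp1-/- cells, against 569, 378 and 345 in Nrdp1+/+ cells. The Nrdp1-/- array was 4.63-fold, 4.96-fold and 5.10-fold above its Nrdp1+/+ counterpart at the 3 times, and the groups did not overlap. The mean difference of 2.28 ± 0.10 was the largest of the set and stood at rank 25 of the 10838 genes (limma, adjusted p = 2.07e-07).

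Gzma encodes the other tryptase-like granzyme of this neighbourhood. Its signal was 907 untreated, 708 at 4 h and 670.1 at 8 h in Nrdp1-/- cells, against 370.5, 223 and 337 in Nrdp1+/+ cells. Every Nrdp1-/- array lay above every Nrdp1+/+ array, by 2.45-fold, 3.17-fold and 1.99-fold at the matched times. The mean difference was 1.30 ± 0.14 (limma, adjusted p = 0.000251).

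Gzmb encodes granzyme B, which cleaves after aspartate and activates caspases in the target. Its signal was 223 untreated, 795 at 4 h and 4559.8 at 8 h in Nrdp1-/- cells, against 112, 367 and 1299 in Nrdp1+/+ cells. Nrdp1-/- was above Nrdp1+/+ at each time, by 1.99-fold, 2.17-fold and 3.51-fold, while the groups overlapped when the times were pooled. That difference averaged 1.29 ± 0.16 (limma, adjusted p = 0.000508).

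Prf1 encodes perforin. Its brighter probe set gave 549 untreated, 491 at 4 h and 422 at 8 h in Nrdp1-/- cells, against 369.9, 240.0 and 246 in Nrdp1+/+ cells. No array of one genotype fell into the range of the other, and the mean difference was 0.78 ± 0.14 (limma, adjusted p = 0.00801). The dimmer probe set gave 107, 131 and 69.1 in Nrdp1-/- cells against 104, 97.4 and 161 in Nrdp1+/+ cells at the same times. It lay above Nrdp1+/+ at 4 h and below it at 8 h, with a mean of -0.24 ± 0.33 (limma over all probe sets, adjusted p = 0.827). The probe sets of Prf1 thus disagree, and with their mean in place of the brighter one the difference was 0.27 and was not called (adjusted p = 0.659).

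Nkg7 encodes a granule membrane protein needed for efficient degranulation. Its signal was 3832 untreated, 5484 at 4 h and 6533 at 8 h in Nrdp1-/- cells, against 3540.2, 2482 and 3129 in Nrdp1+/+ cells. The untreated arrays differed by 1.08-fold and the stimulated ones by 2.21-fold and 2.09-fold. The mean difference was 0.77 ± 0.16 (limma, adjusted p = 0.0181).

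Ctsw encodes cathepsin W, a cysteine protease largely restricted to cytotoxic lymphocytes. Its signal was 3874 untreated, 5185 at 4 h and 3736 at 8 h in Nrdp1-/- cells, against 2896, 3641 and 2592 in Nrdp1+/+ cells. The ratio varied little over the times, at 1.34, 1.42 and 1.44, and the groups did not overlap. The mean difference was 0.49 ± 0.08 (limma, adjusted p = 0.00464).

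The 3 uncalled genes had smaller differences. Gzmm, a granzyme that cleaves after methionine or leucine, gave 344, 304 and 309 in Nrdp1-/- cells against 253, 279 and 264 in Nrdp1+/+ cells, untreated and at 4 h and 8 h. All 3 Nrdp1-/- arrays lay above the Nrdp1+/+ arrays, but the mean of 0.26 ± 0.15 was not called (limma, adjusted p = 0.441). Srgn, the granule scaffold, gave 18902, 26221 and 20957 in Nrdp1-/- cells against 19152, 20766 and 19634 in Nrdp1+/+ cells. Its groups overlapped and the mean difference was 0.14 ± 0.09 (limma, adjusted p = 0.487). Serpinb9 gave 446, 1244 and 1569.9 in Nrdp1-/- cells against 473, 934 and 1205 in Nrdp1+/+ cells. Nrdp1-/- was thus lower untreated and higher at both stimulated times, with a mean of 0.24 ± 0.12 (limma, adjusted p = 0.371). Its dimmer probe set gave 0.41 ± 0.15 and was not called either (limma over all probe sets, adjusted p = 0.231).

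The Nrdp1-/- array was above the Nrdp1+/+ array at all 3 times for 7 of the 9 genes, where 17.4% of all genes tested were. All 3 Nrdp1-/- arrays were above all 3 Nrdp1+/+ arrays for 6 of the 9, namely Gzma, Gzmk, Gzmm, Prf1, Nkg7 and Ctsw, where 5.73% of all genes were. The 6 called genes, which include Gzmb but not Gzmm, stayed called when any 1 array was left out, and with the 4 stimulated arrays alone. Without the intensity trend in limma's variance estimate only Gzmk was called.

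**Figure D2:**
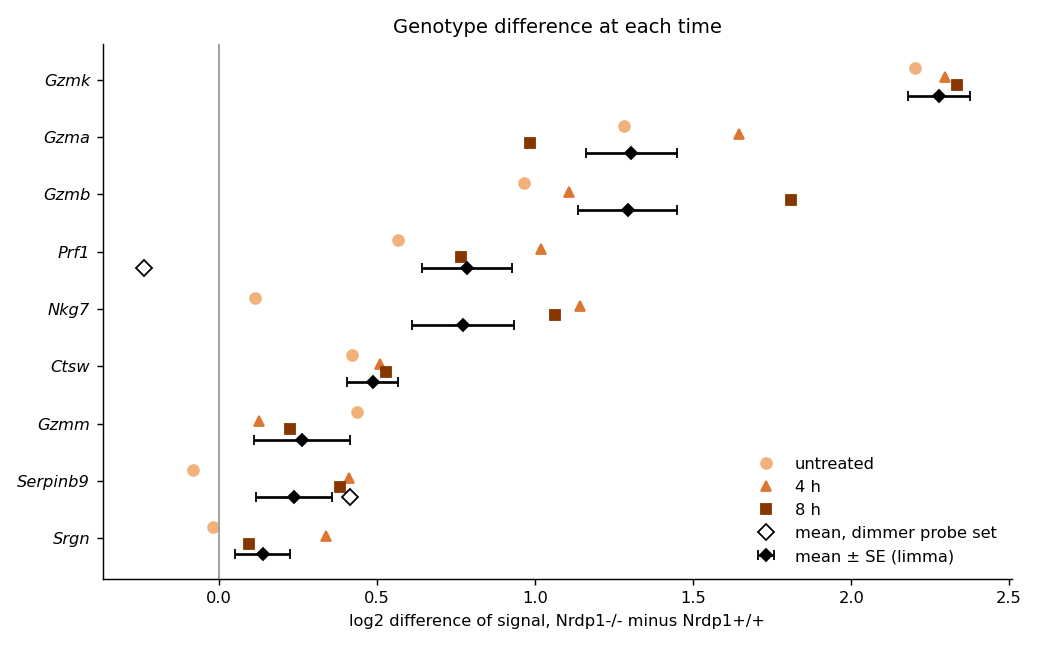
Log2 difference, Nrdp1-/- minus Nrdp1+/+, of the 9 tested granule genes at each time (circles untreated, triangles 4 h, squares 8 h, 1 array pair each), with black diamonds for the mean over the 3 times and its standard error from limma and open diamonds for the mean of a dimmer probe set. Gzmk stands at 2.28, Gzma and Gzmb near 1.30, and Srgn, Serpinb9 and Gzmm lie closest to 0.

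Markers of other cells differed between the same arrays, so their values stand beside these results. Among 11 tested genes that mark memory-like CD8 T cells, 7 stood higher and 0 lower in Nrdp1-/- cells, with summed signals of 50814 to 58592 on Nrdp1-/- arrays against 40969 to 46576 on Nrdp1+/+ arrays. All 11 lay at or above the array median on every array, as did all 28 granule transport and release genes on the array. The cells are labelled naive, and the bearing of these signals on that label was not tested. Of 10 tested markers of NK and innate-like lymphocytes, which also carry these granule proteins, 3 were higher and 1 lower, and their sums of 16654 to 24787 on Nrdp1-/- arrays and 18909 to 25566 on Nrdp1+/+ arrays overlapped. Most of that sum was Klrd1, with 13216 to 20989 on Nrdp1-/- arrays and 16549 to 23185 on Nrdp1+/+ arrays. Without Klrd1 the sums were 3438 to 3797 against 2359.9 to 2606, with no overlap. The genes called higher were Klrk1, which is also on the memory-like list, Fcer1g and Klrc1. Klra7 was lower, by -1.72 ± 0.27 (limma, adjusted p = 0.00278). Fcer1g fell with time on Nrdp1-/- arrays, as did the myeloid and neutrophil sum below. Its signal was 580 untreated, 427 at 4 h and 266 at 8 h, against 181, 215 and 138 on Nrdp1+/+ arrays. Of the 13 NK markers on the array, 7 lay above the median on all 6 arrays and 2, Ncr1 and Klra1, below it on all 6. Markers of basophils and of mast cells, which also hold serglycin, were higher for 3 of 4 tested genes, with sums of 1167 to 1401 on Nrdp1-/- arrays against 689 to 780 on Nrdp1+/+ arrays, while Tpsb2, Cma1 and Mcpt4 lay below the array median throughout. Myeloid and neutrophil markers were higher for 6 of 13 and lower for 0. Their sums on Nrdp1-/- arrays were 15686 untreated, 10461 at 4 h and 4601 at 8 h, against 4161, 3654 and 3661 on Nrdp1+/+ arrays. Without Lyz1, the brightest of them, the ranges over the times were 3160 to 9961 against 2818 to 3529 and overlapped. Besides Lyz1, the genes called higher were Lyz2, Prtn3, Mpo, Gpnmb and Csf1r. B cell markers were lower for 10 of 11, and the 1 called higher was Ighm, which made up most of the overlapping sums of 25541 to 35088 on Nrdp1-/- arrays and 33549.7 to 37696 on Nrdp1+/+ arrays. Without Ighm the B cell sums were 3311 to 3559 on Nrdp1-/- arrays against 15038 to 17344 on Nrdp1+/+ arrays, with no overlap. Plasma cell markers were higher for 2 and lower for 1 of 4, with sums of 14816 to 22071 on Nrdp1-/- arrays against 10077 to 11675 on Nrdp1+/+ arrays, which overlapped without Jchain. Plasmacytoid dendritic cell markers were higher for 1 and lower for 4 of 7, with sums of 5065 to 5958 against 8929 to 10393. The part of these cells in the granule gene differences was not tested. With each array centred on its T and CD8 lineage genes the same 6 granule genes were called, with differences of 2.25 for Gzmk, 1.28 for Gzma, 1.27 for Gzmb, 0.76 for Prf1, 0.75 for Nkg7 and 0.46 for Ctsw.

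**Figure D3:**
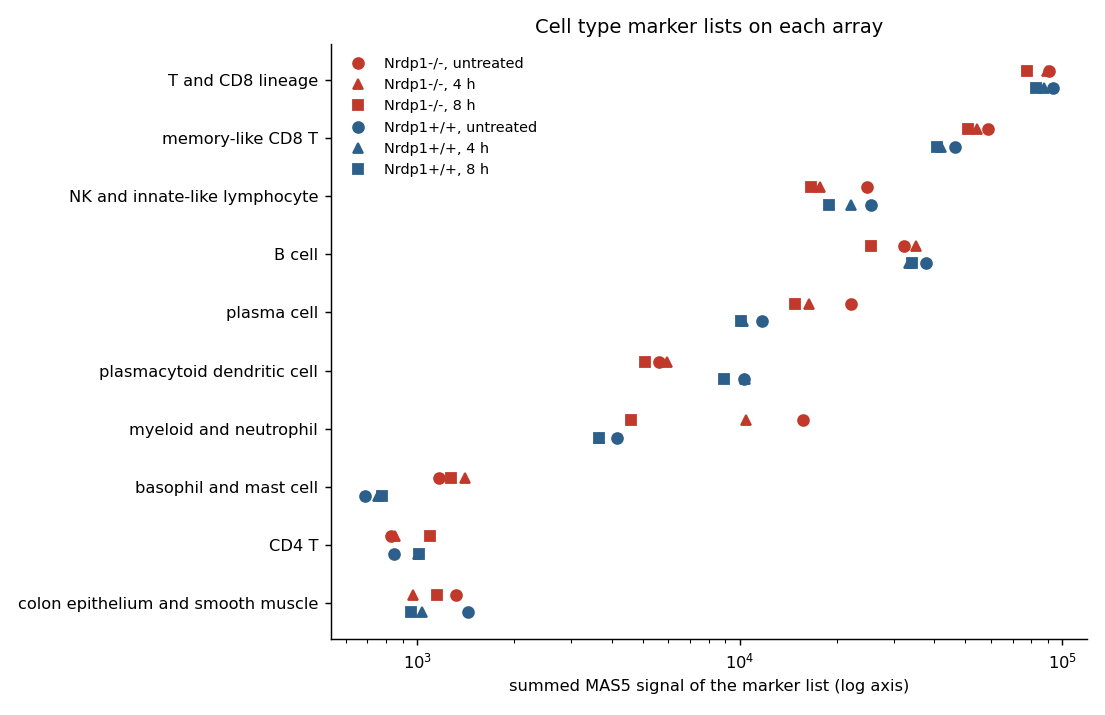
Summed MAS5 signal of each fixed marker list on each array (log axis), red for Nrdp1-/- and blue for Nrdp1+/+, with circles for untreated cells, triangles for 4 h and squares for 8 h. The T and CD8 lineage sums overlap, whereas the memory-like CD8 T cell sums of 50814 to 58592 on Nrdp1-/- arrays lie above the 40969 to 46576 on Nrdp1+/+ arrays.

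The granule genes split after stimulation. Gzmb and Serpinb9 were higher at 4 h and at 8 h than in untreated cells, Ctsw was higher at 4 h, and Gzmk was lower at both times. At 4 h, 3 of the 9 tested genes were called higher, where 8.01% of all genes were, and 1 was called lower, where 5.51% were. At 8 h, 2 were called higher, where 9.88% of all genes were, and 1 lower, where 9.26% were. The member medians of 0.00 at 4 h and -0.04 at 8 h lay close to those of all genes, which were -0.05 and -0.07. Cell type markers also changed with time. At 8 h, 6 of 13 tested myeloid and neutrophil markers and 3 of 4 plasma cell markers were called lower and 0 higher. Of 10 T and CD8 lineage markers 3 were lower and 0 higher, and of 11 memory-like genes 4 were higher and 4 lower. The part of other cells in the member changes, the fall of Gzmk among them, was not tested.

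The signal of Gzmb at 4 h was 3.57 times its untreated value in Nrdp1-/- cells and 3.28 times in Nrdp1+/+ cells. At 8 h the ratio was 20.5 in Nrdp1-/- cells and 11.6 in Nrdp1+/+ cells. The fitted change over both genotypes was 1.74 ± 0.19 at 4 h (limma, adjusted p = 0.000152). At 8 h it was 3.91 ± 0.19, rank 17 of the genes tested (limma, adjusted p = 2.48e-07). Gzmb was also the 1 member called between 4 h and 8 h, with 2.16 ± 0.19 (limma, adjusted p = 0.00151). In that comparison 0.0185% of all genes were called higher and 0.0277% lower, and 0 members were called lower. At an unadjusted limma p under 0.05, 2 members were higher and 1 lower, against 376 and 531 of the 10838 genes.

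Serpinb9 stood at 2.79 times its untreated signal at 4 h and 3.52 times at 8 h in Nrdp1-/- cells, against 1.97 and 2.55 times in Nrdp1+/+ cells. All 4 stimulated arrays lay above both untreated arrays. The fitted change was 1.22 ± 0.15 at 4 h (limma, adjusted p = 0.000291) and 1.57 ± 0.15 at 8 h (limma, adjusted p = 3.98e-05). Its dimmer probe set rose by 1.00 ± 0.18 at 8 h (limma over all probe sets, adjusted p = 0.00769), and its 0.47 ± 0.18 at 4 h was not called (adjusted p = 0.162).

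Gzmk moved the other way. At 4 h it was at 0.712 of its untreated signal in Nrdp1-/- cells and 0.664 in Nrdp1+/+ cells, and at 8 h at 0.667 in Nrdp1-/- cells and 0.606 in Nrdp1+/+ cells. It fell by 0.54 ± 0.12 at 4 h (limma, adjusted p = 0.0139) and by 0.65 ± 0.12 at 8 h (limma, adjusted p = 0.00415). The 4 h call was lost without the untreated Nrdp1-/- array (adjusted p = 0.067) or the untreated Nrdp1+/+ array (adjusted p = 0.117).

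Ctsw was 0.38 ± 0.10 higher at 4 h (limma, adjusted p = 0.0294) and gave -0.11 ± 0.10 at 8 h (adjusted p = 0.506). The 4 h call of Ctsw was lost when any 1 of the 4 untreated or 4 h arrays was left out, and with arrays centred on their median (adjusted p = 0.0656). Gzma gave -0.54 ± 0.18 at 4 h and -0.29 ± 0.18 at 8 h, and neither was called (limma, adjusted p = 0.068 and 0.294). Prf1 gave -0.39 ± 0.17 and -0.48 ± 0.17, likewise uncalled (adjusted p = 0.177 and 0.0795). Srgn gave 0.29 ± 0.11 and 0.09 ± 0.11 and Gzmm -0.02 ± 0.19 and -0.04 ± 0.19 at the same times, and neither gene was called. Without the intensity trend, Gzmb at 8 h was the only call left on stimulation.

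Gzmc, a granzyme whose gene neighbours Gzmb on chromosome 14 with 0 protein-coding genes between them, stayed below the median of every array. Its signal was 2.08 untreated, 7.32 at 4 h and 41.2 at 8 h in Nrdp1-/- cells, against 2.13, 7.80 and 63.2 in Nrdp1+/+ cells. Both genotypes were highest at 8 h, and Nrdp1-/- was below Nrdp1+/+ at all 3 times. With no filter on dim genes its change at 8 h was 3.08 ± 0.76 (limma, adjusted p = 0.0247), a value close to background, and its genotype difference was -0.21 ± 0.62 (adjusted p = 0.949).

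**Figure D4:**
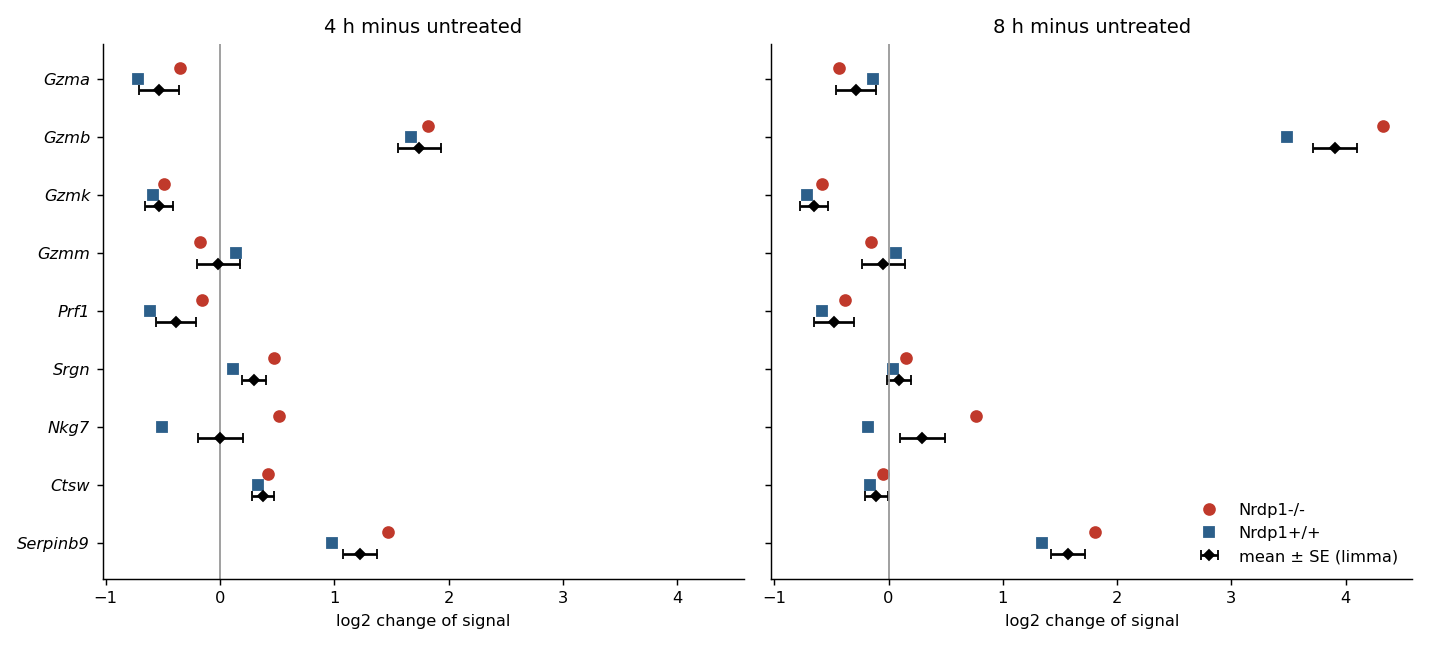
Log2 change from untreated cells at 4 h and at 8 h for the 9 tested granule genes within each genotype (red circles Nrdp1-/-, blue squares Nrdp1+/+), with black diamonds for the mean and its standard error from limma. Gzmb reaches 4.33 in Nrdp1-/- cells and 3.48 in Nrdp1+/+ cells at 8 h, Serpinb9 lies above 0 in both genotypes, Gzmk lies below 0 in both, and Nkg7 lies on opposite sides of 0.

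An added term in the model compared the size of the genotype difference with and without stimulation. Nkg7 was the 1 member called, with a genotype difference of 1.10 in stimulated cells and 0.11 in untreated cells, which differ by 0.99 ± 0.23 (limma, adjusted p = 0.011). Over its untreated signal Nkg7 stood at 1.43 at 4 h and 1.70 at 8 h in Nrdp1-/- cells, and at 0.701 and 0.884 in Nrdp1+/+ cells. In this comparison 0.0923% of all genes were called higher and 0.129% lower, and 0 members were called lower. At an unadjusted limma p under 0.05, 1 member was higher and 0 lower, against 182 and 224 of the 10838 genes. The term leaves 1 residual degree of freedom, and limma's prior degrees of freedom for it were infinite. Its standard errors therefore come from the spread pooled over genes and not from the gene's own spread. The Nkg7 call held under 3 of 8 alternatives. It was lost with quantile normalization (adjusted p = 0.117), with median centring (adjusted p = 0.818) and with the spread of the additive model (adjusted p = 0.999). For Gzmb the genotype difference averaged over the stimulated times exceeded the untreated one by 0.49 ± 0.30, which was not called (limma, adjusted p = 1.00). The genotype difference in the 8 h change of Gzmb alone was not tested.

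**Figure D5:**
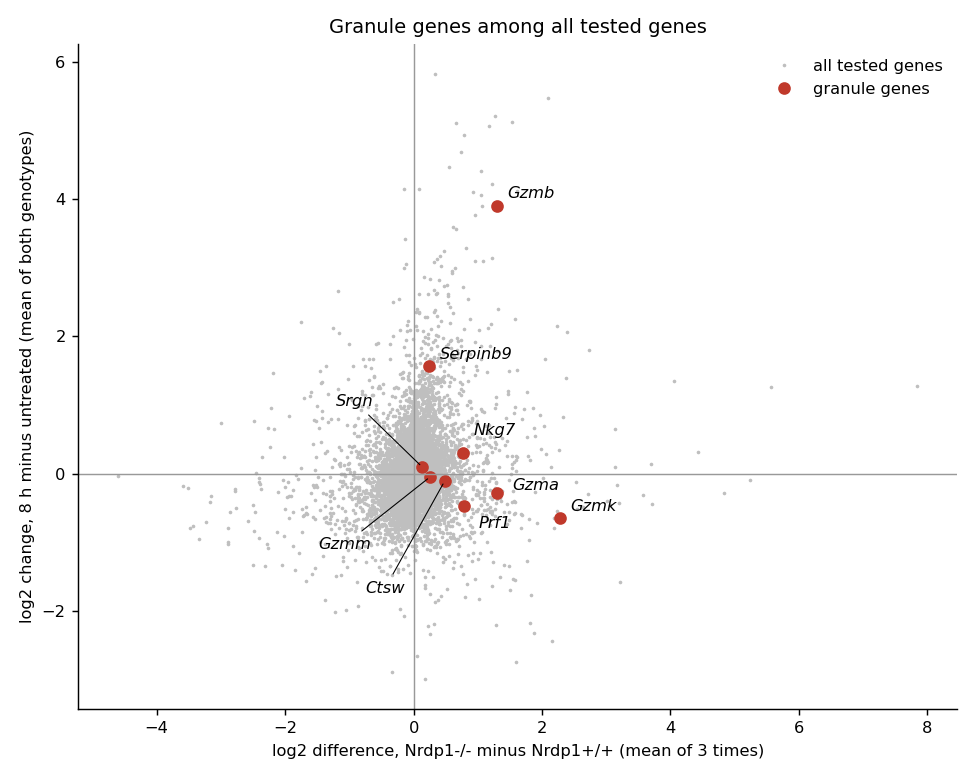
Mean genotype difference (Nrdp1-/- minus Nrdp1+/+, x axis) against the change at 8 h over untreated cells (y axis), both on the log2 scale, for the 10838 genes tested (grey) and the 9 granule genes (red). Gzmb stands high on both axes at 1.29 and 3.91, Serpinb9 is high on the y axis alone, and Gzmk lies far to the right at 2.28 and just below 0 on the y axis.

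Further genes of the pathway were followed as fixed lists, whose counts stand against the shares of all genes called. Those shares were 2.47% higher and 2.57% lower by genotype, 8.01% and 5.51% at 4 h, and 9.88% and 9.26% at 8 h. Among 15 tested other granule effector genes, 2 were higher and 2 lower in Nrdp1-/- cells. Higher were Fasl, the death ligand used beside granules, by 0.68 ± 0.17 (limma, adjusted p = 0.0476), and Cst7, an inhibitor of granule cathepsins, by 0.52 ± 0.10 (adjusted p = 0.011). Lower were Ctsh by -1.87 ± 0.19 (adjusted p = 0.000158) and Lgmn by -1.66 ± 0.28 (adjusted p = 0.00449), lysosomal proteases that B cells and myeloid cells also express. The granzymes Gzmd, Gzme, Gzmf, Gzmg and Gzmn lay below the array median on all 6 arrays. On stimulation this list had 2 genes higher and 1 lower at 4 h, and 2 higher and 3 lower at 8 h. Fasl changed by 0.83 ± 0.21 at 4 h and 0.92 ± 0.21 at 8 h, and Ctsd, a lysosomal aspartic protease, by -0.52 ± 0.11 and -0.56 ± 0.11. Ctsh was lower at 8 h, by -1.05 ± 0.24 (limma, adjusted p = 0.0109), and its -0.69 ± 0.24 at 4 h was not called.

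Of 28 tested genes of granule transport and release, 1 was higher and 0 lower in Nrdp1-/- cells. That gene was Stx11, a syntaxin needed for granule fusion, with 0.76 ± 0.16 (limma, adjusted p = 0.0202). Its signal was 212, 463 and 764 in Nrdp1-/- cells against 137, 321 and 339 in Nrdp1+/+ cells, untreated and at 4 h and 8 h. Stx11 also changed by 1.15 ± 0.20 at 4 h and 1.55 ± 0.20 at 8 h. In this list 2 of the 28 genes were higher and 3 lower at 4 h, and 1 higher and 4 lower at 8 h. The lower ones included Lyst, by -0.84 ± 0.10 at 4 h and -0.32 ± 0.10 at 8 h. Also lower were Sytl1, a Rab27 effector, by -0.83 ± 0.20 and -0.96 ± 0.20, and Vamp8, a vesicle SNARE, by -0.38 ± 0.11 and -0.44 ± 0.11. Of 6 tested serpin and cystatin inhibitors, 1 was called higher between the genotypes, at 4 h and at 8 h, and 0 were lower in these comparisons. Between the genotypes that was Cst7, and on stimulation it was Serpinb6b, by 0.68 ± 0.19 at 4 h and 0.85 ± 0.19 at 8 h.

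Among 35 tested regulators of the cytotoxic programme, 6 were higher and 1 lower in Nrdp1-/- cells. Tbx21 and Eomes, the T-box factors that control granzyme and perforin genes, differed by 1.09 ± 0.17 (limma, adjusted p = 0.00259) and 0.78 ± 0.11 (adjusted p = 0.00194). Tbx21 had 564, 1077 and 1432 in Nrdp1-/- cells against 399.7, 402 and 553 in Nrdp1+/+ cells, untreated and at 4 h and 8 h. Bhlhe40 differed by 1.01 ± 0.13 (adjusted p = 0.000598) and Id2, which favours effector cells, by 0.77 ± 0.13 (adjusted p = 0.00499). On stimulation 15 regulators were higher and 3 lower at 4 h, and 14 higher and 6 lower at 8 h. The largest changes were those of Il2ra, the high-affinity IL-2 receptor chain, with 3.78 ± 0.17 and 4.69 ± 0.17, and of Irf4 with 3.31 ± 0.14 and 3.18 ± 0.14. Eomes and Il2rb are on both the regulator and the memory-like list. Fasl is on the effector and memory-like lists, and Klrk1 on the memory-like and NK lists. Cst7 is on the effector and inhibitor lists, and Cst3 on the inhibitor and myeloid lists. The counts of those lists are therefore not separate.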

How the data were processed

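Per the submitters' processing notes the deposited values are MAS5 output, with no version given. The deposited intensity values are linear signals of 45101 probe sets, and the authors' scaling shows in them as an equal trimmed mean on all 6 arrays. A single factor per array hides a change shared by most transcripts. The 64 array controls were left out. Platform annotation gave 34945 probe sets 1 symbol and 932 several. The other 9160 have no symbol in that table and stay unnamed. Symbols were checked through RefSeq identifiers (34741 matched, 0 changed).

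Each gene's brightest probe set was analysed as log2(signal + 4.45), the 10th percentile of all values, which understates fold changes of dim genes. Genes reaching the array median on at least 2 arrays were kept. Time and genotype were additive terms in limma 3.58.1 (R 4.3.3) with an intensity trend, 2 residual and 8.99 prior degrees of freedom, and Benjamini-Hochberg adjustment over all 10838 genes at 0.05. The script was tested on simulated data. The number of arrays limits the precision.

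The members, gene lists, marker lists and motifs were chosen with earlier results of these data known. All 10 members are named, with Rnf41, the 5 genes most like Gzmb and the 5 most like Gzmk. Of each other list, genes were named from the 4 called ones with the largest change in a comparison. Not all of those are named. Genes named beyond that, such as dim markers, were chosen after their values were seen. Alternatives were quantile normalization, median centring, centring on T and CD8 lineage genes, 2 pseudocounts, 2 filters, the mean of probe sets, no trend, a fit to the 4 stimulated arrays, and the omission of each array in turn. The additive spread for the interaction, the fit over single probe sets and the marker sums without the brightest gene were added after seeing the data.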

Additional observations from a re-analysis of the deposited data

Results flagged for a closer look

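Nkg7 was singled out because its genotype difference was larger in stimulated than in untreated cells, by 0.99 on the log2 scale, in the test of that difference itself. Its untreated arrays differed by 0.11 and its stimulated arrays by 1.10. The myeloid and neutrophil marker sum was also highest on the untreated Nrdp1-/- array, at 15686, and the part of that array's makeup in the Nkg7 result was not tested.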

How the results depend on the processing

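Of 590 recomputed gene values 576 kept their sign. The 14 that turned were uncalled in the reported fit. Gzmm at 4 h was 0.022 with quantile normalization and 0.0044 with median centring, Nkg7 at 4 h was -0.015 with quantile normalization, and the Prf1 difference between stimulated and untreated genotype differences was -0.048 with the mean of probe sets. Leaving out each array gave -0.15 to 0.12 for Gzmm and -0.49 to 0.50 for Nkg7 at 4 h, and -0.18 to 0.087 for Gzmm, -0.20 to 0.79 for Nkg7 and -0.025 to 0.21 for Srgn at 8 h. Between 4 h and 8 h it gave -0.0054 to 0.51 for Gzma, -0.27 to 0.086 for Prf1 and -0.13 to 0.074 for Gzmm. Members called higher by genotype numbered 6 in every such fit. Leaving out each array gave 2 to 4 members higher and 0 to 2 lower at 4 h, 2 to 3 higher and 1 to 2 lower at 8 h, and 0 to 1 lower between 4 h and 8 h. Those fits have 1 residual degree of freedom, so they lean on the spread pooled over genes. Of those fits, all-gene counts are given below only for the one without the untreated Nrdp1-/- array, where they differed from the reported fit. The member counts with an array left out therefore have no background beside them. They do not show whether members were called more or less often than other genes. Nkg7 was called higher at 8 h without the untreated or the 8 h Nrdp1+/+ array, and its sign turned without the untreated Nrdp1-/- array. Without the intensity trend the members called were 1 higher by genotype, 0 higher and 0 lower at 4 h, 1 higher and 0 lower at 8 h, and 0 between 4 h and 8 h. The member called for the added term was lost, leaving 0, without the trend and with quantile normalization, median centring, the mean of probe sets or the additive spread. The cause was not tested. Over all genes, calls without the trend were 42 higher and 57 lower by genotype (reported fit 268 and 279), 83 and 4 at 4 h (868 and 597) and 103 and 5 at 8 h (1071 and 1004). With the mean of probe sets they were 175 and 181 by genotype, and 302 and 435 lower at 4 h and 8 h, and with median centring 386 lower at 4 h. Without the untreated Nrdp1-/- array they were 577 and 218 at 4 h and 703 and 350 at 8 h. No paired analysis was possible because the labels give no replicate numbers, and the times already stand as blocks in the fit. Gzmc lay below the array medians, so signal over background limits its values.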

Other observations

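The genes whose values ran most like those of Gzmb over the 6 arrays, among 714 genes spanning at least 2 on the log2 scale, were Cdk6 (Pearson r = 0.963), a cell cycle kinase, Slc1a4 (r = 0.960), a neutral amino acid transporter, H2-T24 (r = 0.956), AA467197 (r = 0.956) and Gadd45g (r = 0.953). The genes most like Gzmk were Zdhhc2 (r = 0.997), Igkv9-120 (r = 0.993), an immunoglobulin kappa segment, Jchain (r = 0.988), which joins antibody subunits in plasma cells, Mt1 (r = 0.987), a metallothionein, and Ctse (r = 0.987), an aspartic protease. These are descriptions over 6 arrays that share the same 2 genotypes and 3 times.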
